A study of Mus musculus with 8 samples.

Results

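The AMPK subunit genes Prkaa1, Prkaa2, Prkab1, Prkab2, Prkag1 and Prkag2 and the mTOR complex genes Mtor, Rptor, Rictor and Deptor were followed in mouse hearts after a 2-day fast. They were found among the non-control probes of the arrays as those whose accession belongs to one of these symbols in RefSeq, which gave all 10 genes on 16 of 41174 probes. Each gene was represented by its brightest probe that was well above background on at least 4 arrays, and the 10 genes were among 20131 genes and unnamed probes tested. RNA came from whole hearts of 8 male C57BL/6J mice, an inbred laboratory strain, 9 weeks old and raised on the CE-2 chow diet. The 4 satiated mice had no treatment, and the 4 fasted mice had water but no food for 2 days. Each heart was hybridised to its own 1-colour array, replicates 1 and 2 of both groups on slide 1 and replicates 3 and 4 of both groups on slide 2. The labels number separate samples and do not describe the mice further, so p-values reflect only how far these 8 samples spread.

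AMPK is a kinase of 3 kinds of subunit: a catalytic alpha, a beta that holds the complex together and binds glycogen, and a gamma that binds AMP and ATP. It is switched on when cellular energy runs low and favours fuel burning over synthesis, and in heart muscle the alpha2 form, encoded by Prkaa2, carries much of its activity. mTOR is the catalytic kinase of a pair of complexes that promote growth: mTORC1, which contains raptor (Rptor) and answers to amino acids and insulin, and mTORC2, which contains rictor (Rictor) and phosphorylates Akt. Deptor binds and inhibits both complexes, and AMPK restrains mTORC1 partly by phosphorylating raptor. Much of this control acts on proteins, which the arrays do not measure.

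Some hearts stood apart on markers of other tissues. Satiated replicate 1 lay more than 3 log2 units above each of the other 7 hearts on 5 of 7 fast skeletal muscle markers, Mylpf, Tnni2, Tnnt3, Actn3 and Pvalb. Its log2 level of Actn3, a fast-fibre actinin, was 3.58 against -4.35 to -3.28 in the others, and that of Tnni2, the fast troponin I, was 6.14 against 0.73 to 2.77. Satiated replicates 3 and 4 lay above the other 6 hearts on 2 of 5 adipocyte markers: Plin1, a lipid droplet coat protein, at 1.77 and 2.32 against -0.91 to 0.41, and Retn, resistin, at -0.29 and 0.40 against -3.75 to -2.08. On Adipoq (2.80 and 3.51 against 1.12 to 2.84), Cfd (5.19 and 6.09 against 4.60 to 5.85) and Cidec (3.50 and 4.09 against 1.93 to 4.33) they overlapped the others. On 0 of the 5 adipocyte markers was the gap more than 3 log2 units. The part of these tissue markers in the values below was not tested, and results without each of the hearts that stood apart are given beside the calls.

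No gene of the set passed the test between fasted and satiated hearts: 0 of 10 were called at an adjusted p under 0.05 in limma, where 20.2% of all genes tested were called, 9.84% higher and 10.3% lower in the fasted hearts. At an unadjusted p under 0.05 there was 1, Prkag2, against 33.8% of all genes. The log2 fold changes, fasted minus satiated, lay between -0.51 and 0.23, with a median of -0.04 against -0.004 over all genes tested. The groups did not overlap for 3 of the 10, Prkaa1 and Prkag2 lower and Prkab2 higher in the fasted hearts, a share close to the 27.6% of all genes (13.3% higher and 14.3% lower). When the slide was taken into the model as a block, Prkaa2 and Prkag2 fell and no gene rose, 2 of 10 called where the same fit called 35.5% of all genes, 17.2% higher and 18.4% lower. The replicate number as a block called the same 2 genes, beside 32.1% of all genes, 15.5% higher and 16.7% lower. With any 1 array left out and no block the count was again 0 in limma. All genes were then called at 14.6%, 12.5%, 13.9% and 12.3% without satiated replicates 1, 2, 3 and 4, and at 14.3%, 17.5%, 18.3% and 16.5% without fasted replicates 1, 2, 3 and 4.

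**Figure D1:**
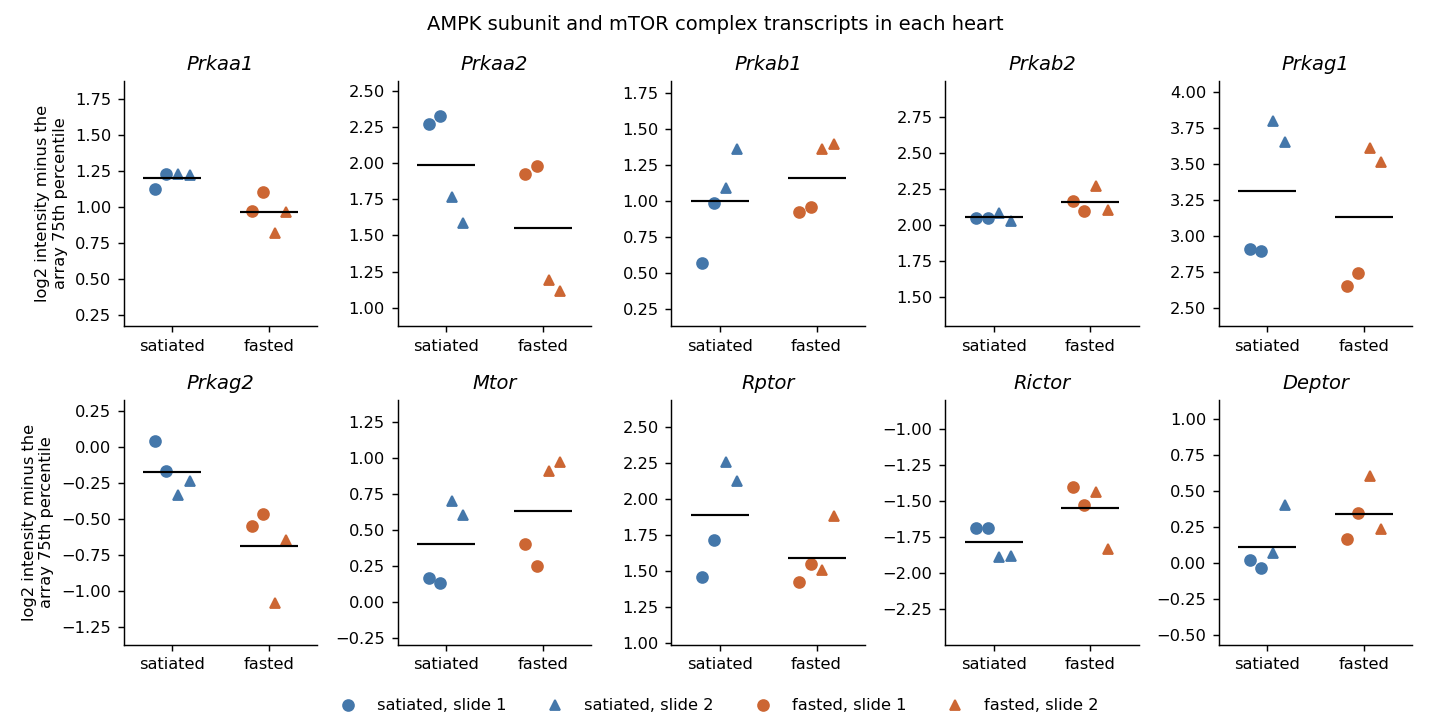
Log2 intensity minus the 75th percentile of the array (vertical axis, no unit) in each satiated and fasted heart, circles for slide 1 and triangles for slide 2, with the group mean as a black line; all panels span the same range of log2 values. Hearts of a slide sit together in Prkaa2, Prkag1 and Mtor, and in Prkag2 all fasted hearts lie below all satiated hearts.

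The slides set some of these levels apart more than fasting did. For 5 of the 10 genes, Prkaa2, Prkab1, Prkag1, Mtor and Rptor, the mean difference between slide 2 and slide 1 was larger than that between fasted and satiated hearts. It was largest for Prkag1, at 0.84, where the fasted hearts differed from the satiated ones by -0.18. The share of all genes with such a larger slide difference was not counted, so this count does not mark these genes out. The difference between the groups had the same direction on both slides for all 10 genes, as it did for 81.1% of all genes. For 7 of the 10 the fasted hearts also lay wholly on one side of the satiated hearts within slide 1 and within slide 2, on the same side, against 46% of all genes.

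Of the catalytic subunits, alpha2 was lower in the fasted hearts on each slide. On slide 1 the log2 level of Prkaa2, relative to the array's 75th percentile, was 2.27 and 2.33 in the satiated and 1.93 and 1.98 in the fasted hearts. On slide 2 it was 1.77 and 1.59 in the satiated and 1.19 and 1.11 in the fasted hearts. Every fasted heart thus lay below both satiated hearts of its slide, while the groups overlapped across slides. The log2 fold change was -0.44 ± 0.27 (SE, n = 4 and 4; 95% interval -1.05 to 0.18), a 1.35-fold lower level, and it did not pass (adjusted p = 0.300 in limma). With the slide as a block its SE was 0.08, its interval -0.63 to -0.24 and its adjusted p = 0.00773 in limma. Blocking on the replicate number gave an adjusted p of 0.0204. The difference was -0.35 on slide 1 and -0.53 on slide 2, and it did not pass on either slide alone (adjusted p = 0.125 and 0.152 in limma). The call with the slide block held when any 1 array was left out (adjusted p = 0.0116 to 0.0270), among them satiated replicate 1 (0.0174), 3 (0.0257) and 4 (0.0257). Without a slide term the value was -0.58 to -0.29 over the arrays left out, the extremes without fasted replicates 2 and 4.

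Alpha1, encoded by Prkaa1, gave opposite results on its 2 probes. The brighter probe, A_51_P158922, read 1.13, 1.23, 1.23 and 1.23 in satiated replicates 1 to 4 and 0.97, 1.11, 0.82 and 0.97 in fasted replicates 1 to 4. Its fasted hearts all lay below its satiated hearts, with a log2 fold change of -0.24 ± 0.11 (SE; adjusted p = 0.164 in limma, and 0.0713 once the slide was a block). The dimmer probe, A_52_P173344, read -1.87, -1.77, -2.59 and -2.44 in the satiated and -0.76, -1.28, -1.50 and -1.52 in the fasted hearts, in the same order. There all fasted hearts lay above all satiated hearts, and the log2 fold change was 0.90 ± 0.25 (SE).

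That rise passed in the fit on every kept probe (adjusted p = 0.0340 in limma, where 21.1% of 26476 probes were called) and with the slide as a block (adjusted p = 0.00229, where 37.1% were called). The fasted hearts lay 0.54 to 1.06 above the satiated mean of their slide. The call was lost without fasted replicate 1 (adjusted p = 0.0752), fasted replicate 2 (0.0653), satiated replicate 3 (0.0815) or satiated replicate 4 (0.0917), and kept without satiated replicate 1 (0.0450). It was also lost when dim probes were kept in the fit (0.0788). Both probes carry the same transcript accession on the array and were well above background on all 8 arrays, and the part of the transcript that each one reads was not analysed here. The direction for Prkaa1 therefore depends on the probe, and the mean of both probes was 0.33 (adjusted p = 0.160).

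**Figure D2:**
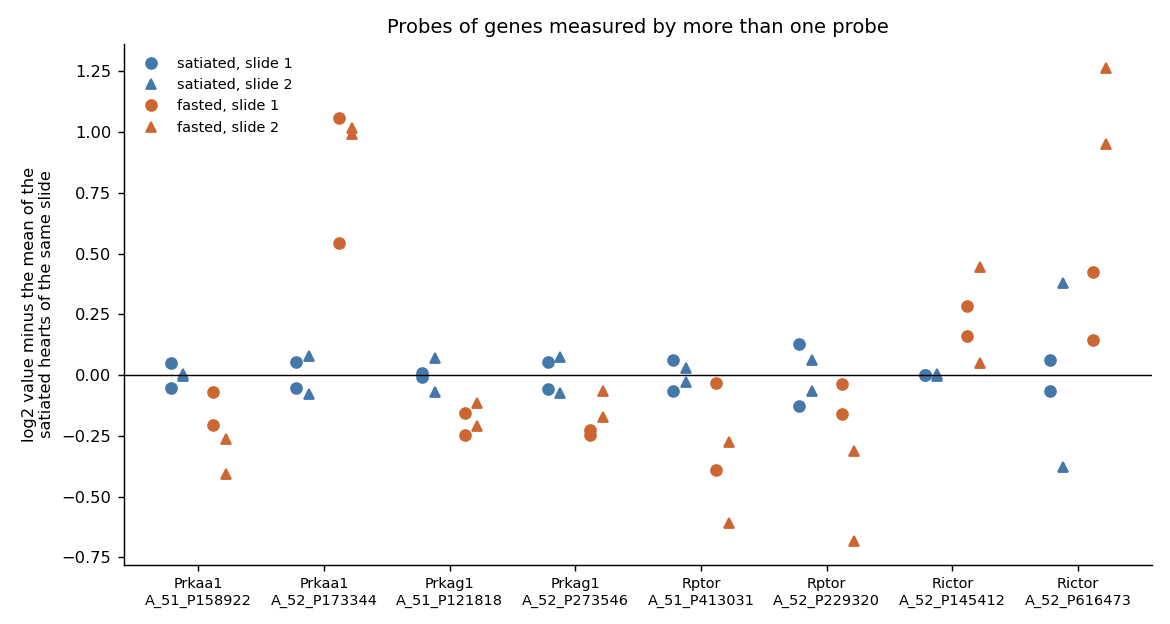
Log2 value of each heart minus the mean of the satiated hearts of the same slide (vertical axis) for the 8 detected probes of Prkaa1, Prkag1, Rptor and Rictor, blue for satiated and orange for fasted hearts, circles for slide 1 and triangles for slide 2. The fasted hearts lie below 0 on one Prkaa1 probe and above 0 on the other, while both probes of a gene point the same way for Prkag1 (below 0), Rptor (below 0) and Rictor (above 0).

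Of the gamma subunits, which sense adenine nucleotides, Prkag2 passed only in some fits and Prkag1 did not pass. Prkag2 encodes gamma2, the form mutated in a human heart disease with glycogen storage and ventricular preexcitation. Its log2 level was 0.04, -0.16, -0.34 and -0.24 in satiated replicates 1 to 4 and -0.55, -0.47, -1.09 and -0.64 in fasted replicates 1 to 4. The groups did not overlap, and fasted replicate 3 was the lowest heart. The mean was -0.17 ± 0.16 in satiated and -0.69 ± 0.28 in fasted hearts (SD, n = 4 each), a log2 fold change of -0.51 ± 0.16 (SE; 1.43-fold; 95% interval -0.89 to -0.14), which missed the threshold (adjusted p = 0.0611 in limma).

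With the slide as a block Prkag2 passed (adjusted p = 0.0147 in limma), as it did when the replicate number was the block (adjusted p = 0.0233). The difference was -0.45 on slide 1 and -0.58 on slide 2, and it did not pass on either slide alone (adjusted p = 0.105 and 0.194 in limma). The call with the slide block was lost without satiated replicate 4 (log2 fold change -0.48, adjusted p = 0.0507) and kept without satiated replicate 1 (0.0435) or 3 (0.0412). Without a slide term Prkag2 stayed above the threshold when any 1 array was left out (adjusted p = 0.0589 to 0.142), and it passed in the deposited ratios (adjusted p = 0.0365) and among probes well above background on all 8 arrays (adjusted p = 0.0430).

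Prkag1, the gamma1 subunit, had a log2 fold change of -0.18 ± 0.31 (SE; 95% interval -0.89 to 0.53; adjusted p = 0.738 in limma). Leaving out 1 array moved it between -0.34, without fasted replicate 3, and -0.02, without satiated replicate 3 or fasted replicate 1. Its log2 level was 2.89 to 2.91 in satiated and 2.65 to 2.74 in fasted hearts on slide 1, and 3.65 to 3.79 against 3.51 to 3.61 on slide 2, so that the groups separated on each slide. The SE fell to 0.08 with the slide as a block, where the adjusted p was 0.103 in limma. The dimmer Prkag1 probe gave nearly the same difference, -0.18 ± 0.61, with a slide shift of its own from -0.99 and -1.10 to 0.71 and 0.57 in the satiated hearts.

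The beta subunits did not pass in either fit. Prkab2, the beta2 scaffold of striated muscle, lay between 2.03 and 2.08 in the satiated and between 2.10 and 2.27 in the fasted hearts. These narrow ranges did not overlap, and the log2 fold change was 0.11 ± 0.10 (SE; 95% interval -0.12 to 0.33; adjusted p = 0.507 in limma), and 0.07 without fasted replicate 3. Prkab1, the beta1 scaffold, overlapped between the groups, with 0.57 to 1.36 in the satiated and 0.92 to 1.39 in the fasted hearts and a log2 fold change of 0.16 ± 0.20 (SE; 95% interval -0.30 to 0.62; adjusted p = 0.629). That value rested on single hearts, at 0.02 without satiated replicate 1 and 0.28 without satiated replicate 4.

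The promoters of Prkaa2 and Prkag2 are shown because these genes were lower together once the slide was in the model. Each window runs from 250 bases before to 50 bases after an annotated start in RefSeq, build GRCm38.p6, written 5′ to 3′ on the gene's strand, here the minus strand, with GC boxes (GGGCGG on either strand) in capitals. Prkag2 has 3 annotated starts, and the arrays do not say from which of them the measured transcripts came.
Prkaa2 (chr4:105109849-105110148, - strand): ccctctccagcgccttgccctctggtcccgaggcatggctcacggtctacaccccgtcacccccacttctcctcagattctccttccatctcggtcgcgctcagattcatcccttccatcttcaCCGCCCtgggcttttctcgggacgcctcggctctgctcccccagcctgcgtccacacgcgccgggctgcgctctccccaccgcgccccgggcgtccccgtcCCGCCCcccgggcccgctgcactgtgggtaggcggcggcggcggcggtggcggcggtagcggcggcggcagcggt
Prkag2 (chr5:25100593-25100892, - strand): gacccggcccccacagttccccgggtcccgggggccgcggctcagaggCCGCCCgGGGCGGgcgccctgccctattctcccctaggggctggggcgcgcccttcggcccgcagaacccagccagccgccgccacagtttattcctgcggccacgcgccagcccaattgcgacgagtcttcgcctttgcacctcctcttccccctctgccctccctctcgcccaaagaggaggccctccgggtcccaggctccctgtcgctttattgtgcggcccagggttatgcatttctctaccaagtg
Prkag2 (chr5:24995704-24996003, - strand): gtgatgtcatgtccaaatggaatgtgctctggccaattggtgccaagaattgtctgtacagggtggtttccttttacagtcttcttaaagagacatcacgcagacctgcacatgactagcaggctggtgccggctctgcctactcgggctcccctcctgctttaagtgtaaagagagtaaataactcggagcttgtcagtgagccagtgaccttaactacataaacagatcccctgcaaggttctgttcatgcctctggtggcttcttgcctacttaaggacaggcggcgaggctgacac
Prkag2 (chr5:24908460-24908759, - strand): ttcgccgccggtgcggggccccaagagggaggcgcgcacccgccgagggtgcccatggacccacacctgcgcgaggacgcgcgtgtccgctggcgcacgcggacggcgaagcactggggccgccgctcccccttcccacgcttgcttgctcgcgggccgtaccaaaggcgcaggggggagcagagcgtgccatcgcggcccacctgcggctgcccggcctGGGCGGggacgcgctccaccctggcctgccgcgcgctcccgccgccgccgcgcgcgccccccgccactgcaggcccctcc
RefSeq windows were found for 9 of the 10 genes, all but Deptor, 11 windows in all. A GC box, a common motif of promoters rich in G and C, was in 8 of the 11, against 35.7% of all 32851 windows. The windows with a box were 54.7% to 82.0% G and C, where the median of all windows was 52.7%. Of the 11 windows, 3 belong to Prkag2 alone. The FoxO motif GTAAACA (3.65% of all windows), the E-box CACGTG, bound by Myc, clock and TFEB proteins (7.15%), and the PPAR direct repeat with 1 base between its repeats (0.04%) were in 0 of the 11, searched on both strands. AGAACA, a motif of the glucocorticoid receptor, was in 1, that of Prkag1, against 19.0% of all windows. A match describes the letters only.

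Of the mTOR kinase and its partners, Mtor itself was slightly higher in the fasted hearts of each slide. Its log2 level was 0.17 and 0.13 in satiated and 0.40 and 0.25 in fasted hearts on slide 1, and 0.70 and 0.60 against 0.91 and 0.97 on slide 2. The groups separated within each slide but overlapped across them. The log2 fold change was 0.23 ± 0.22 (SE; 95% interval -0.27 to 0.73; adjusted p = 0.511 in limma), and with the slide as a block the interval was 0.05 to 0.42 (adjusted p = 0.0573). Without a slide term the value was 0.12 without fasted replicate 4 and 0.36 without fasted replicate 2.

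Rptor, the scaffold that brings substrates to mTORC1, read 1.46, 1.71, 2.25 and 2.13 in satiated replicates 1 to 4 and 1.42, 1.55, 1.51 and 1.88 in fasted replicates 1 to 4. The fasted hearts were lower on slide 2 and overlapped the satiated hearts on slide 1. The log2 fold change of -0.30 ± 0.20 (SE; 95% interval -0.76 to 0.16) did not pass (adjusted p = 0.345 in limma, and 0.128 once the slide was a block). It was -0.10 on slide 1 and -0.50 on slide 2, and the difference between slides was not tested. Without satiated replicate 3 it was -0.18, and without satiated replicate 1 -0.44. The dimmer Rptor probe had a similar value, -0.33 ± 0.20.

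Rictor, the defining subunit of mTORC2, read -1.69, -1.69, -1.89 and -1.88 in satiated replicates 1 to 4 and -1.40, -1.53, -1.44 and -1.83 in fasted replicates 1 to 4. Within each slide the fasted hearts lay higher, fasted replicate 4 by the least. The log2 fold change was 0.23 ± 0.13 (SE; 95% interval -0.07 to 0.54; adjusted p = 0.261 in limma, and 0.114 once the slide was a block). Of its other 3 probes, A_52_P616473 read 0.70 ± 0.25 (adjusted p = 0.0853), well above background on 6 arrays, and the remaining probes were not well above background on any array. Deptor, the inhibitor of both complexes, lay between -0.04 and 0.40 in the satiated and between 0.17 and 0.60 in the fasted hearts, with a log2 fold change of 0.22 ± 0.15 (SE; 95% interval -0.12 to 0.57; adjusted p = 0.336), and 0.14 without fasted replicate 3.

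**Figure D3:**
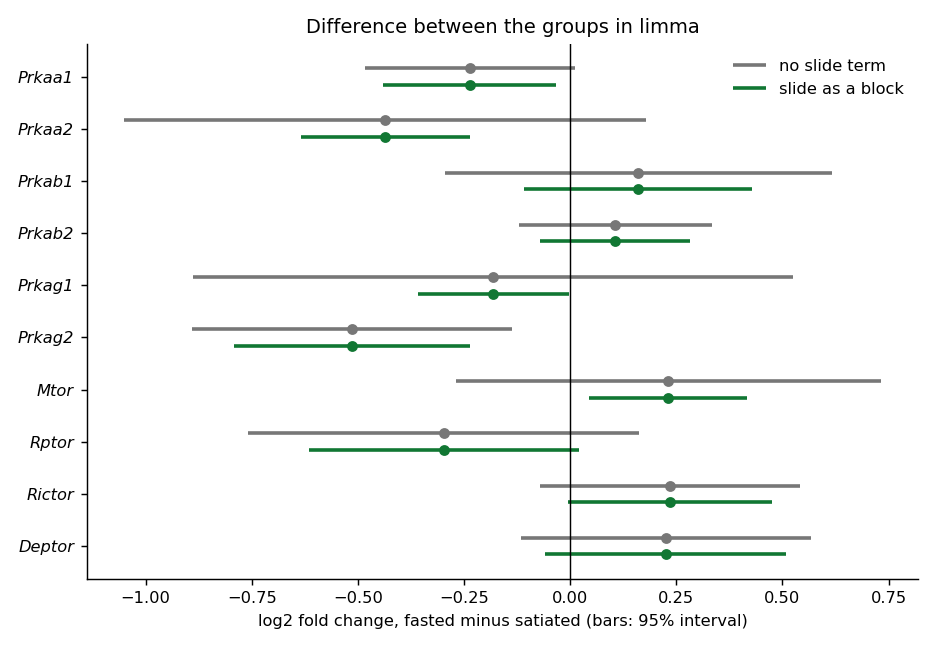
Log2 fold change, fasted minus satiated (horizontal axis), of the 10 genes in limma with 95% intervals, grey without a slide term and green with the slide as a block. The green intervals are narrower for every gene, and those of Prkaa2 (-0.63 to -0.24) and Prkag2 (-0.79 to -0.24) lie farthest from 0.

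Across the 8 arrays, the genes with a symbol whose values ran most like those of Prkag2, the member with the smallest p, were Scamp4 (Pearson r = 0.993), Paqr8 (0.989) and Tha1 (0.987) of 13864 genes. After each group's mean was taken out they were Ackr1 (r = 0.998), Vps4b (0.992) and Tha1 (0.986). These values describe 8 arrays that share slides, without a test.

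The counts in the pathway lists that follow stand beside 9.84% higher and 10.3% lower among all genes tested. Of 7 further subunits and partners of the same complexes, 3 fell (42.9%) and 0 rose in limma, with a median log2 fold change of -0.43. Mapkap1, the SIN1 subunit of mTORC2, fell by 1.35 on the log2 scale (SE 0.13; 2.56-fold; adjusted p = 0.000829), a call kept without any 1 array. A further Mapkap1 probe gave -1.35 ± 0.16, while the other one read -0.26 ± 0.40 (adjusted p = 0.695). Mlst8, the LST8 subunit shared by both complexes, fell (-0.84 ± 0.22, adjusted p = 0.0320), as did Telo2, a chaperone factor for mTOR and related kinases (-0.85 ± 0.24, adjusted p = 0.0400). Mlst8 lost its call without any 1 satiated array (adjusted p = 0.0700 to 0.0789), and Telo2 kept its call only without fasted replicate 2 or satiated replicate 3 (otherwise 0.0578 to 0.105). Without satiated replicate 1, 2 or 4 the count of genes that fell was 1, Mapkap1 in each case, and either block, slide or replicate number, let 1 gene rise.

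Among 15 measured genes that act on AMPK, 3 rose (20.0%) and 1 fell (6.67%), with a median of 0.34. Flcn, folliculin, which binds AMPK through its partners (0.54 ± 0.16, adjusted p = 0.0477), Ppm1e, a phosphatase of AMPK (0.48 ± 0.13, adjusted p = 0.0327), and Cab39, the MO25 scaffold of the upstream kinase LKB1 (0.46 ± 0.13, adjusted p = 0.0458), rose. Camkk1, a calcium-dependent kinase related to an AMPK kinase, fell (-0.79 ± 0.21, adjusted p = 0.0309). The other Cab39 probes read 0.15 ± 0.15 and 0.04 ± 0.18. Cab39 and Flcn kept their calls only without fasted replicate 2 (otherwise adjusted p = 0.0630 to 0.122), and Ppm1e only without satiated replicate 1 or fasted replicate 4 (otherwise 0.0525 to 0.0966). By count, 0 genes rose without satiated replicate 2, 3 or 4 or fasted replicate 1 or 3, and Camkk1 kept its call only without satiated replicate 2 or fasted replicate 3 (otherwise 0.0515 to 0.0780). The slide block gave 7 genes that rose and the replicate block 6.

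Of 22 genes listed as substrates of AMPK 5 rose (22.7%) and 2 fell (9.09%), with a median of 0.43. Eef2k, the kinase that slows translational elongation, rose 3.95-fold (1.98 ± 0.18, adjusted p = 0.000595). Txnip, which limits glucose uptake (1.55 ± 0.27, adjusted p = 0.00690), Crtc2, a CREB coactivator (0.75 ± 0.14, adjusted p = 0.00750), and Acacb, the acetyl-CoA carboxylase that limits fatty acid entry into mitochondria (0.73 ± 0.10, adjusted p = 0.00227), rose too. These 4 calls held without any 1 array, though a dimmer Acacb probe read 0.68 ± 0.36 (adjusted p = 0.214). The count that fell was 0 without satiated replicate 1, 2, 3 or 4 or fasted replicate 1 or 4, and 1 without fasted replicate 2. The replicate block gave 9 that rose.

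Upstream of mTORC1, 3 of 26 genes of the amino acid and lysosome branch rose (11.5%, near the 9.84% of all genes) and 1 fell (3.85%, under the 10.3% of all genes), with a median of -0.13. Sesn1, a leucine-regulated inhibitor of the branch (1.23 ± 0.28, adjusted p = 0.0174), Mios, a subunit of the GATOR2 complex (0.71 ± 0.12, adjusted p = 0.00559), and Rragc, a Rag GTPase (0.48 ± 0.14, adjusted p = 0.0443), rose, and Kptn, of the KICSTOR complex, fell (-0.74 ± 0.21, adjusted p = 0.0416). Sesn1 lost its call without satiated replicate 2 or 4 (adjusted p = 0.0501 to 0.0508), Rragc kept its call only without fasted replicate 2 (otherwise 0.0613 to 0.116), and Kptn only without fasted replicate 3 or 4 (otherwise 0.0537 to 0.111). The other Mios probe read 0.27 ± 0.17 (adjusted p = 0.296). The count that rose was 1 without satiated replicate 2 or 4. The count that fell was 2 without fasted replicate 3 or 4 and 0 without any other 1 array. With the slide as a block 6 rose and 6 fell, and under the replicate block 5 and 5.

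In the growth factor and stress branch, which counts Deptor among its 14 genes, 3 rose (21.4%) and 2 fell (14.3%), with a median of 0.19. Ddit4, the stress-induced inhibitor REDD1, rose 3.34-fold (1.74 ± 0.31, adjusted p = 0.00744), and Pdpk1, the kinase that activates Akt, rose as well (0.74 ± 0.16, adjusted p = 0.0141). Both calls held without any 1 array. Of the dimmer Pdpk1 probes, A_52_P111397 read 0.83 ± 0.14 (adjusted p = 0.00615 in limma) and A_52_P111390 read -0.12 ± 0.34. Rhebl1, a relative of the mTORC1 activator Rheb, rose (0.45 ± 0.10, adjusted p = 0.0186), while its other probe read 0.39 ± 0.16 (adjusted p = 0.125 in limma). Tbc1d7, of the TSC complex, fell (-0.56 ± 0.14, adjusted p = 0.0236). The calls of Rhebl1 and Tbc1d7 were lost without satiated replicate 2 or 3 or fasted replicate 1. That of Tbc1d7 was also lost without satiated replicate 4, and the adjusted p reached 0.0599 for Rhebl1 and 0.0675 for Tbc1d7. The count that fell was 0 without satiated replicate 2 or 4 or fasted replicate 1, and 1 without satiated replicate 1 or 3 or fasted replicate 3 or 4. Under either block 6 rose.

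**Figure D4:**
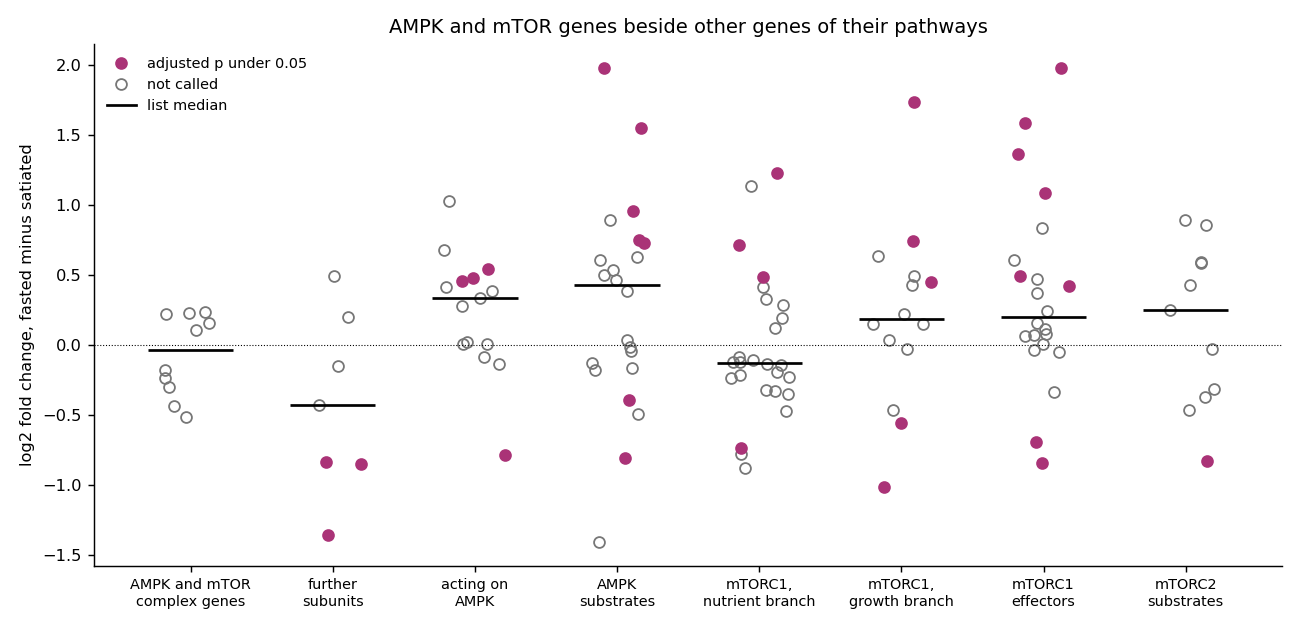
Log2 fold change, fasted minus satiated (vertical axis), of each measured gene of the AMPK and mTOR set and of 7 lists from the same pathways, filled where the adjusted p in limma was under 0.05, with the list median as a black line. The 10 genes at the left lie between -0.51 and 0.23 with none filled, while the other lists reach from -1.41 to 1.98; sideways spread is only for legibility.

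Downstream of mTORC1, 6 of 22 substrates and effectors rose (27.3%) and 2 fell (9.09%), with a median of 0.20. Besides Eef2k, which mTORC1 signalling also reaches, Eif4ebp1, the repressor of cap-dependent translation, rose (1.58 ± 0.20, adjusted p = 0.00203). Uvrag, an autophagy factor, rose (1.37 ± 0.21, adjusted p = 0.00379) and Eif4e, the cap-binding protein that Eif4ebp1 holds back, fell (-0.84 ± 0.18, adjusted p = 0.0137). The 4 calls held without any 1 array, and the second probes of Eif4ebp1 and Eif4e moved the same way (1.45 ± 0.16 and -1.64 ± 0.19). The count that rose was 3 without satiated replicate 2 or 4 or fasted replicate 1. The count that fell was 1 without satiated replicate 1, 3 or 4 or fasted replicate 1 or 3. The 11 genes downstream of mTORC2 were its substrates and effectors further down, such as Foxo1 and Foxo3, with a median of 0.25. Of these 0 rose and 1 fell (9.09%) in limma, Prkca, a protein kinase C (-0.83 ± 0.11, adjusted p = 0.00213). Without fasted replicate 3, 2 fell, and under either block 3 rose and 2 fell.

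On the arrays, 54.4% to 68.9% of probes were well above background, the lower shares on slide 2, and no spot was saturated. All 10 cardiomyocyte markers were detected and 1 fell, Actc1 (cardiac actin), and the summed level was 3066 to 3987 in satiated and 2803 to 3978 in fasted hearts, on the linear scale relative to the 75th percentile. Of 8 fibroblast markers 6 fell, Col1a1, Col1a2, Col3a1, Lum, Tcf21 and Postn, and 1 rose, Dcn (median -1.05). Calls among all these markers stand beside 9.84% higher and 10.3% lower among all genes tested. The summed fibroblast level was 253 to 290 in satiated and 242 to 292 in fasted hearts. Dcn was the largest part of this sum (mean log2 level 7.22 in satiated and 7.78 in fasted hearts). The sum therefore does not show the fall of the others. Of 8 endothelial, 7 macrophage, 5 adipocyte, 7 fast skeletal muscle and 3 erythroid markers 0 were called, and 2 of 7 smooth muscle markers fell. The count of 0 does not describe single hearts, and those that stood apart are named above. The summed level of the adipocyte markers was 31.3 to 103 in satiated and 46.2 to 82.9 in fasted hearts. That of the fast skeletal muscle markers was 184 to 337 in satiated and 177 to 265 in fasted hearts. Myh4 was the largest part of the fast muscle sum, at a log2 level of 7.64 in satiated replicate 1 and 7.24 to 7.88 in the others. This sum therefore does not show how far satiated replicate 1 lay above the others on Mylpf, Tnni2, Tnnt3, Actn3 and Pvalb. The cardiomyocyte marker Myh6 read 8.36 to 9.21 across the hearts, and whether the Myh4 probe reads Myh4 alone was not tested. In whole hearts, fewer cells of a type and less RNA per cell cannot be told apart. The part of these markers in the values above was not tested.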

How the data were processed

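Arrays were scanned in 1 colour (Cy3), and the scanner tables hold spot intensities with the background subtracted by Agilent Feature Extraction and no normalization between arrays, per the file headers, which give version 10.5.1.1 for slide 1 and 10.7.3.1 for slide 2, whereas the submitters' processing notes name version 9.1. The well-above-background and outlier flags are those of the deposited tables. The deposited table of the series holds linear ratios around 1 per probe, and the sources used here do not give what each probe was divided by. Slide, scan and software version cannot be told apart, and both groups had 2 hearts on either slide.

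Log2 intensities had each array's 75th percentile subtracted, after control spots (1639 of 45018) and outlier spots were left out and spots of a probe averaged. Probes were kept where at least 4 of 8 arrays had them well above background (26476), named through RefSeq GRCm38.p6 transcript accessions (26918 of 41174 probes, none with several symbols), and the brightest kept probe stood for its gene. The groups' test was limma's (version 3.58.1, R 4.3.3; lmFit, then eBayes), both directions, with Benjamini-Hochberg adjustment over all genes tested, called at an adjusted p under 0.05; the fit was tested on simulated data. Other probes of a gene come from the same model on all kept probes. Named genes were all members and, of each pathway list, up to 4 called genes with the smallest p. The members and lists were chosen with earlier results of these data known. Alternatives were normexp background correction (offset 50), other scalings and filters, the slide or the replicate number as a block, each slide alone, the mean of a gene's probes, the deposited ratios and each array left out. The files hold no mean signal, so normexp used the median signal, a choice made after seeing the data, as was the pairing of the slide block with the other alternatives.

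Same-numbered hearts of both groups, numbered in the labels, deviated together from their group means (r = 0.331 to 0.493 across genes). Within a slide this was not so (r = -0.11 to 0.05), and the numbers share the slide. Precision is limited by having 4 arrays a group.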

Additional observations from a re-analysis of the deposited data

Results flagged for a closer look

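In 5 of 74 groups of 4 hearts examined, over the members' detected probes and the named pathway genes, 1 heart lay far from the other 3, as the gap to its nearest neighbour over the range of the group, past Dixon's 95% critical value for groups of 4. Chance gives about 1 such group in 20. For the brighter Prkaa1 probe, satiated replicate 1 (1.13) lay below the other satiated hearts (ratio 0.937), which all read 1.23. Fasted replicate 3 was the heart set apart for Mlst8 (0.07, the lowest fasted heart, ratio 0.935), Uvrag (3.59, the highest, ratio 0.934) and Eif4e (2.08, the lowest, ratio 0.937). For Acacb, fasted replicate 1 (6.03) lay above the other fasted hearts (ratio 0.932). Without fasted replicate 3, the calls of Mlst8, Uvrag and Eif4e were kept.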

How the results depend on the processing

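Of 190 alternative values of the members' log2 fold changes, 183 kept their direction and their side of the threshold, 6 came to pass and 1 reversed, Prkaa1 as the mean of its probes (0.33, also with the slide as a block). The count of members that fell, 0, was 2 with the slide as a block and 2 with the replicate block, Prkaa2 and Prkag2, and 1, Prkag2, in the deposited ratios and among probes well above background on all 8 arrays; it was 0 without any 1 array, and none rose under any of these. The replicate block changed no other member's call. With the slide as a block and 1 array left out, 1 to 2 fell and 0 to 1 rose. In that fit 1 member rose with quantile normalization and 1 among probes well above background on all 8 arrays, Mtor both times (adjusted p = 0.0423 and 0.0395), and 2 with the mean of a gene's probes, Prkaa1 and Rictor. The dimmer Prkag1 probe was -0.50 to 0.13 without 1 array, and turned to 0.12, 0.13, 0.13 and 0.08 without fasted replicate 1, fasted replicate 2, satiated replicate 3 and satiated replicate 4. Over all genes 4061 were called, against 7156 with the slide as a block, 6470 with the replicate block, 1872 on slide 1 alone, 1 on slide 2 alone, 2210 when dim probes were kept and 2486 to 3679 without 1 array. The fits on 1 slide alone and those without 1 array used fewer arrays. The cause of these differences was not tested. Of 266 alternative counts for the pathway lists 159 stayed within 1.5 times, 78 were lower and 29 higher. Slides carried a median negative-control signal of 28.5 to 30 and of 136 to 150, which limits dim probes on slide 2.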
